A study of Danio rerio with 16 samples.

Results

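Zebrafish embryos kept in valproic acid (VPA) were compared with embryos kept in its vehicle at 96 hours post-fertilization (hpf), across every zebrafish microRNA (miRNA) that an Agilent miRNA array detected. Both groups were wild-type embryos of the TL strain. One group was exposed to ethanol, the vehicle, and the other to VPA, each starting at 4 hpf, and the labels give no dose. Each group has 4 arrays of total RNA from embryos, which makes 8 of the 16 samples of the series. The members are the 175 of 245 zebrafish miRNAs on the array with signal well above background on 3 or more arrays in vehicle or in VPA embryos. The remaining 70 miRNAs were not tested, and 56 of them were well above background on no array. The title of the series places the comparison in neurodevelopment, and the comparison asks which miRNAs differ after exposure through the first days of development.

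miRNAs are short RNAs that guide Argonaute proteins to complementary messenger RNAs and reduce their translation or stability. Many are restricted to 1 organ, so that RNA of a whole embryo carries miRNAs of brain, gut, liver, muscle, blood and skin side by side. Often several miRNAs are cut from a single primary transcript, and either strand of a hairpin can be loaded. The strand written with an asterisk is the one that was first seen at lower levels. VPA is an anticonvulsant and mood stabilizer that inhibits histone deacetylases, and it is known as a teratogen of the nervous system. In RNA of whole embryos, fewer cells of a type and less RNA per cell cannot be told apart.

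Each miRNA was read by a probe complementary to the 3′ portion of the miRNA, and the probes of the miRNAs on which the results turn are shown because close relatives share much of their sequence. They are the array's deposited probe sequences, 5′ to 3′, and capitals mark the longest run of bases shared with the probe of the relative or neighbour named after it. Every miRNA shown was called, the first 7 of them lower and the last 7 higher in VPA embryos.
miR-212, against miR-132: agccatgaCTGTAGAct
miR-132, against miR-212: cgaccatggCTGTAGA
miR-29b, against miR-29a: acactGATTTCAAATGGTG
miR-29a, against miR-29b: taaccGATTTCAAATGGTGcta
miR-192, against miR-194a: gGCTgtcaattcataggtc
miR-194a, against miR-194b: CCACATGGAGttgct
miR-194b, against miR-194a: tCCACATGGAGcgg
miR-457b, against miR-16a: ctccagTATTTAtgtgctg
miR-16a, against miR-16b: caCCAATATTTACGTGCT
miR-16b, against miR-16a: ctCCAATATTTACGTGCT
miR-16c, against miR-16b: CTCCAATATTTACatgctgc
miR-10a, against miR-10c: acaaattCGGATCTACAGg
miR-10b, against miR-10a: cACAAATTCGGttctacaggg
miR-10c, against miR-10a: acaaatcCGGATCTACAG
The probes of miR-16a and miR-16b, of 18 bases each, share an unbroken run of 16 bases. Those of miR-29a and miR-29b share a run of 14. Further bases match beyond a mismatch in both pairs, as they do for miR-16c with miR-16b and miR-10a with miR-10c. The probes of miR-212 and miR-132 share an unbroken run of 7 bases, and they too match at further bases beyond a mismatch. How much signal close relatives share was not tested. On the build the array is annotated with (danRer6, Zv8), the array's annotation places the probe of miR-212 on chromosome 15 at 26203892 to 26203907 and that of miR-29a on chromosome 4 at 11211760 to 11211780. The probe of miR-192 lies on chromosome 10 at 22538377 to 22538394 and that of miR-194a at 22538200 to 22538213. For miR-16a the position is chromosome 15, 1612512 to 1612528, and for miR-16b chromosome 1, 46862539 to 46862555. For miR-10a it is chromosome 12, 20798896 to 20798913, and for miR-10c chromosome 3, 20719875 to 20719891. The probe of miR-132 has 3 listed matches, those of miR-29b and miR-10b have 2 each, and strands and host genes are not given in the sources used here.

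The arrays differed in brightness before any miRNA was compared. The 75th percentile of the signal was 2238, 2137, 2252 and 2615 on the vehicle arrays, and 1353, 1580, 3610 and 6774 on the VPA arrays. Saturated spots were found on VPA replicate 3 (15 spots) and VPA replicate 4 (212 spots) and on no other array. All levels below are log2 intensities relative to the 75th percentile of the same array, floored at -4.16. On this scale saturated spots of VPA replicate 4 end at 3.27 and those of VPA replicate 3 at 4.18, so that a miRNA at these ceilings has only a lower bound there. Most spots were saturated on VPA replicate 4 for 8 of the 175 miRNAs, none of them called. VPA replicate 4 stood apart for many miRNAs: the SD between VPA arrays was larger than that between vehicle arrays for 150 of 175 miRNAs, with medians of 0.17 and 0.08 on the log2 scale. Vehicle arrays lay in column 1 and VPA arrays in column 2 of 1 slide, and column and treatment therefore cannot be told apart. Arrays with the same replicate number shared a row of the slide, so replicate number and row cannot be told apart either. The labels do not state whether replicates came from separate clutches. The p-values below measure only how far these samples spread, which may be technical. As a check of the label, the miRNAs of muscle (miR-1, miR-206), brain (miR-9, miR-124), liver (miR-122), skin (miR-203a) and red blood cells (miR-451) were well above background on all 8 arrays. The pancreatic islet miRNA miR-375 was on none.

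Of the 175 miRNAs, 38 changed between VPA and vehicle embryos (21.7%, limma, Benjamini-Hochberg adjusted p under 0.05). Of these, 15 rose (8.57%) and 23 fell (13.1%). The 23 include miR-194b, miR-489 and miR-727, which entered the test only through the vehicle arrays and lay near the floor in VPA embryos. Among the 163 miRNAs well above background on all 8 arrays, 35 passed, 15 higher and 20 lower. The changes were modest. The median fold was 1.25 among miRNAs that rose and 1.38 among those that fell, and the largest rise was 1.36-fold. Only miR-29b and miR-212 fell at least 2-fold, and 8 miRNAs fell and 0 rose by at least 1.5-fold. The 4 VPA arrays lay wholly above or below the 4 vehicle arrays for 55 of the 175 (31.4%), which include all 38 called. Without overlap, each of the 38 had to move in the same direction in 4 of 4 pairs of replicates with the same number. That count therefore adds no support. Another detected probe of the same miRNA was present for 27 of the 38, and it had the same sign for all 27. Detected further probes of uncalled miRNAs mostly had the same sign too, so this does not set the called apart. Sizes differed, at -0.44 against -0.82 for miR-194a and -0.69 against -0.55 for miR-27c. For miR-29b, miR-212 and miR-219 no other probe was detected.

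The count depended on single arrays. Without VPA replicate 4, 72 miRNAs passed (37 higher, 35 lower), all 38 among them. Without vehicle replicate 3, 24 passed (7 higher, 17 lower). The balance of rises and falls also moved with the scaling, to 22 and 18 with quantile normalization, 22 and 20 with cyclic loess and 6 and 22 when scaled to the median. With the replicate number as a block 30 passed, all among the 38.

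**Figure D1:**
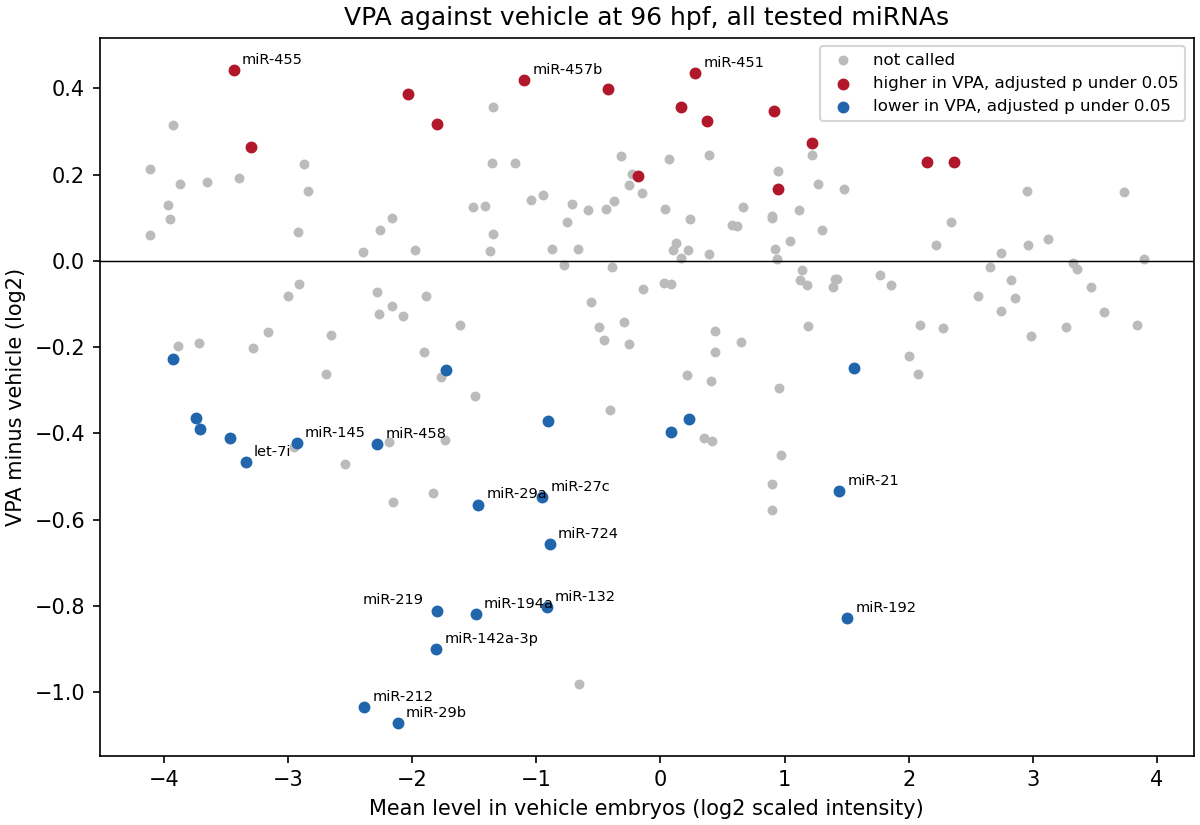
Each point is 1 of the 175 tested miRNAs, with its mean log2 scaled intensity over the 4 vehicle arrays on the x axis and VPA minus vehicle (log2) on the y axis. The 38 miRNAs past the threshold are coloured by direction, and the 17 with the largest absolute difference are named. The falls reach -1.07, whereas the rises end at 0.44.

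**Figure D2:**
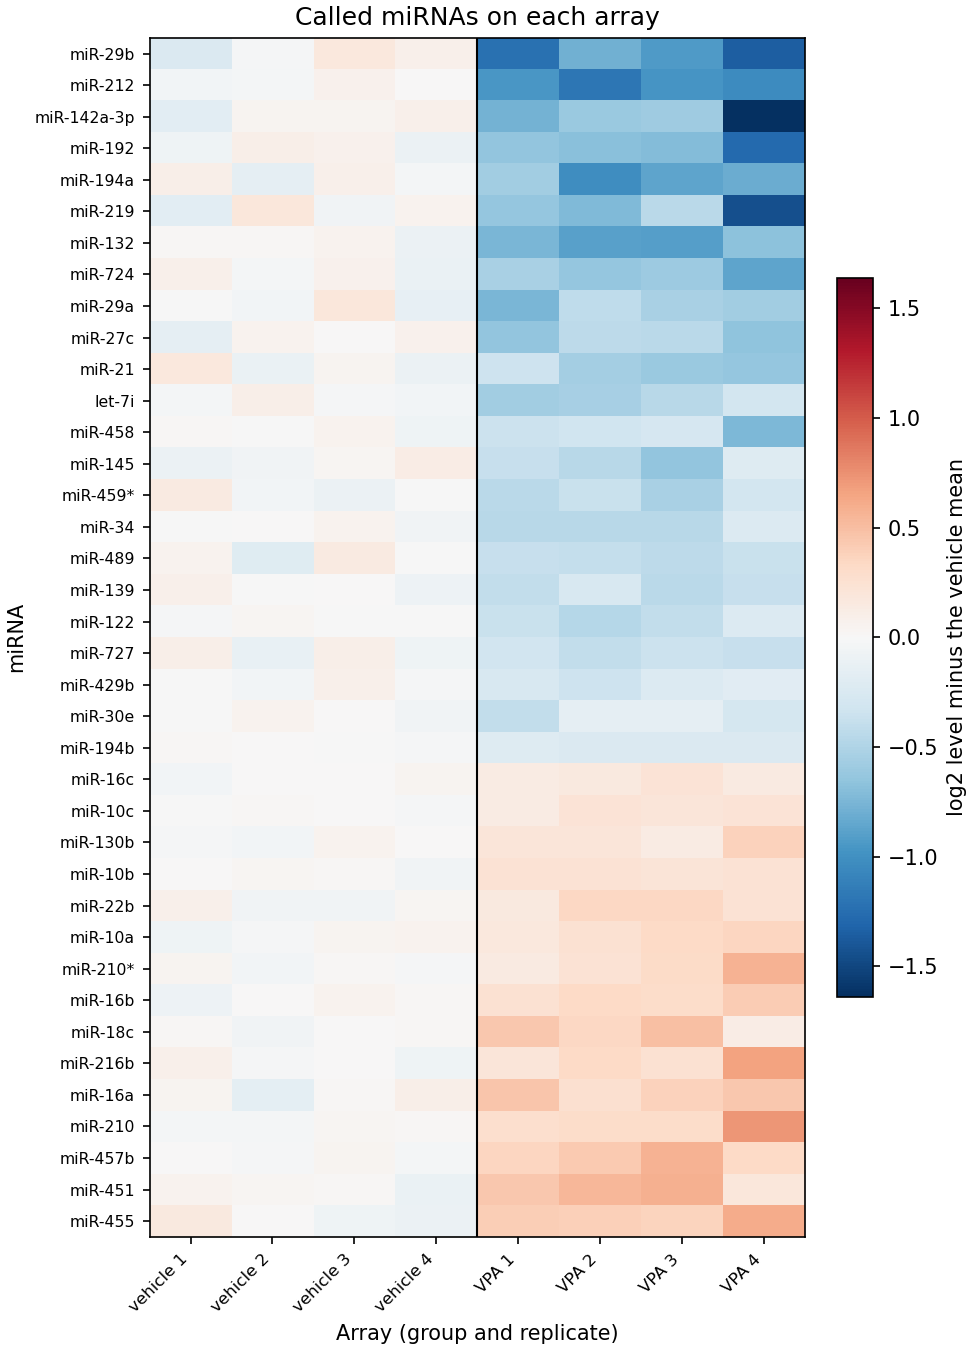
Each row is 1 of the 38 called miRNAs and each column 1 array, coloured by the log2 scaled intensity minus the mean of the 4 vehicle arrays. Rows that are lower in VPA are lower on all 4 VPA arrays, and VPA replicate 4 has the most extreme colours for miR-142a-3p and miR-219.

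The 18 miRNA lists used below were chosen with earlier results of these data known. A list's share of calls is therefore a description and adds no support. Among miRNAs of the central nervous system, 3 fell and 0 rose: miR-212, miR-132 and miR-219. miR-132 and miR-212 are cut from 1 transcript that neuronal activity induces through the factor CREB in mammals, and both act on dendrite growth and synapses. miR-212 had levels of -2.43, -2.41, -2.32 and -2.38 on the vehicle arrays, against -3.34, -3.57, -3.35 and -3.41 on the VPA arrays. The groups lay about 1 log2 unit apart, far beyond the spread within either. The fall was -1.03 ± 0.07 (log2, SE, n = 4 arrays a group), or 2.05-fold, with the smallest adjusted p of all 175 miRNAs (limma, 3.87e-05). miR-132 had levels of -0.89, -0.89, -0.86 and -1.01 in vehicle and -1.67, -1.80, -1.82 and -1.59 in VPA embryos. Every VPA array was below every vehicle array, and the fall was -0.80 ± 0.07 (1.75-fold, limma adjusted p = 0.000189). The probes of the pair lie 263 bases apart on chromosome 15. Their sequences match at further bases beyond the marked run, and how much signal the pair share was not tested.

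miR-219 is known for promoting the maturation of oligodendrocytes, the myelin-forming cells, in mouse and zebrafish. It had levels of -1.98, -1.61, -1.86 and -1.74 in vehicle and -2.43, -2.51, -2.24 and -3.23 in VPA embryos. The groups did not overlap, and VPA replicate 4 was the lowest of all. The difference was -0.81 ± 0.20 (1.75-fold, limma adjusted p = 0.0196), and -0.60 without VPA replicate 4. It no longer passed without vehicle replicate 2, 3 or 4, or with the replicate block (adjusted p = 0.0513).

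The 18 tested miRNAs of the nervous system had a median difference of -0.38, against -0.03 over all 175, and 16 of the 18 were below 0, compared with 94 of the 175. Their share of calls, 16.7%, was close to the background of 21.7%. VPA replicate 4 carried much of the list's shift. Without it the median was -0.19, against -0.005 over all 175. Then 7 members of the list passed lower and 3 higher, where 35 of all 175 passed lower and 37 higher. The members then lower included miR-129*, at -0.76 against -0.58 with all arrays (adjusted p = 0.0703), and miR-138, which acts on dendritic spines, at -0.34. The broad neural miRNAs did not pass with all arrays. miR-124, which is shared by nearly all neurons, had a difference of -0.15 ± 0.09 (adjusted p = 0.241). miR-9, which is made by neural progenitors, had levels of 3.93, 3.89, 3.90 and 3.86 in vehicle and 4.09, 4.09, 4.14 and 3.27 in VPA embryos. The first 3 VPA arrays lay above all vehicle arrays. miR-9 was saturated on VPA replicates 3 and 4, so both values are lower bounds, and 3.27 is the ceiling of VPA replicate 4, which lies below the vehicle levels. The fitted difference of 0.00 over all arrays therefore has no meaning for miR-9. With saturated spots left out, which leaves 3 VPA arrays, the difference was 0.19 (limma adjusted p = 0.0319).

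**Figure D3:**
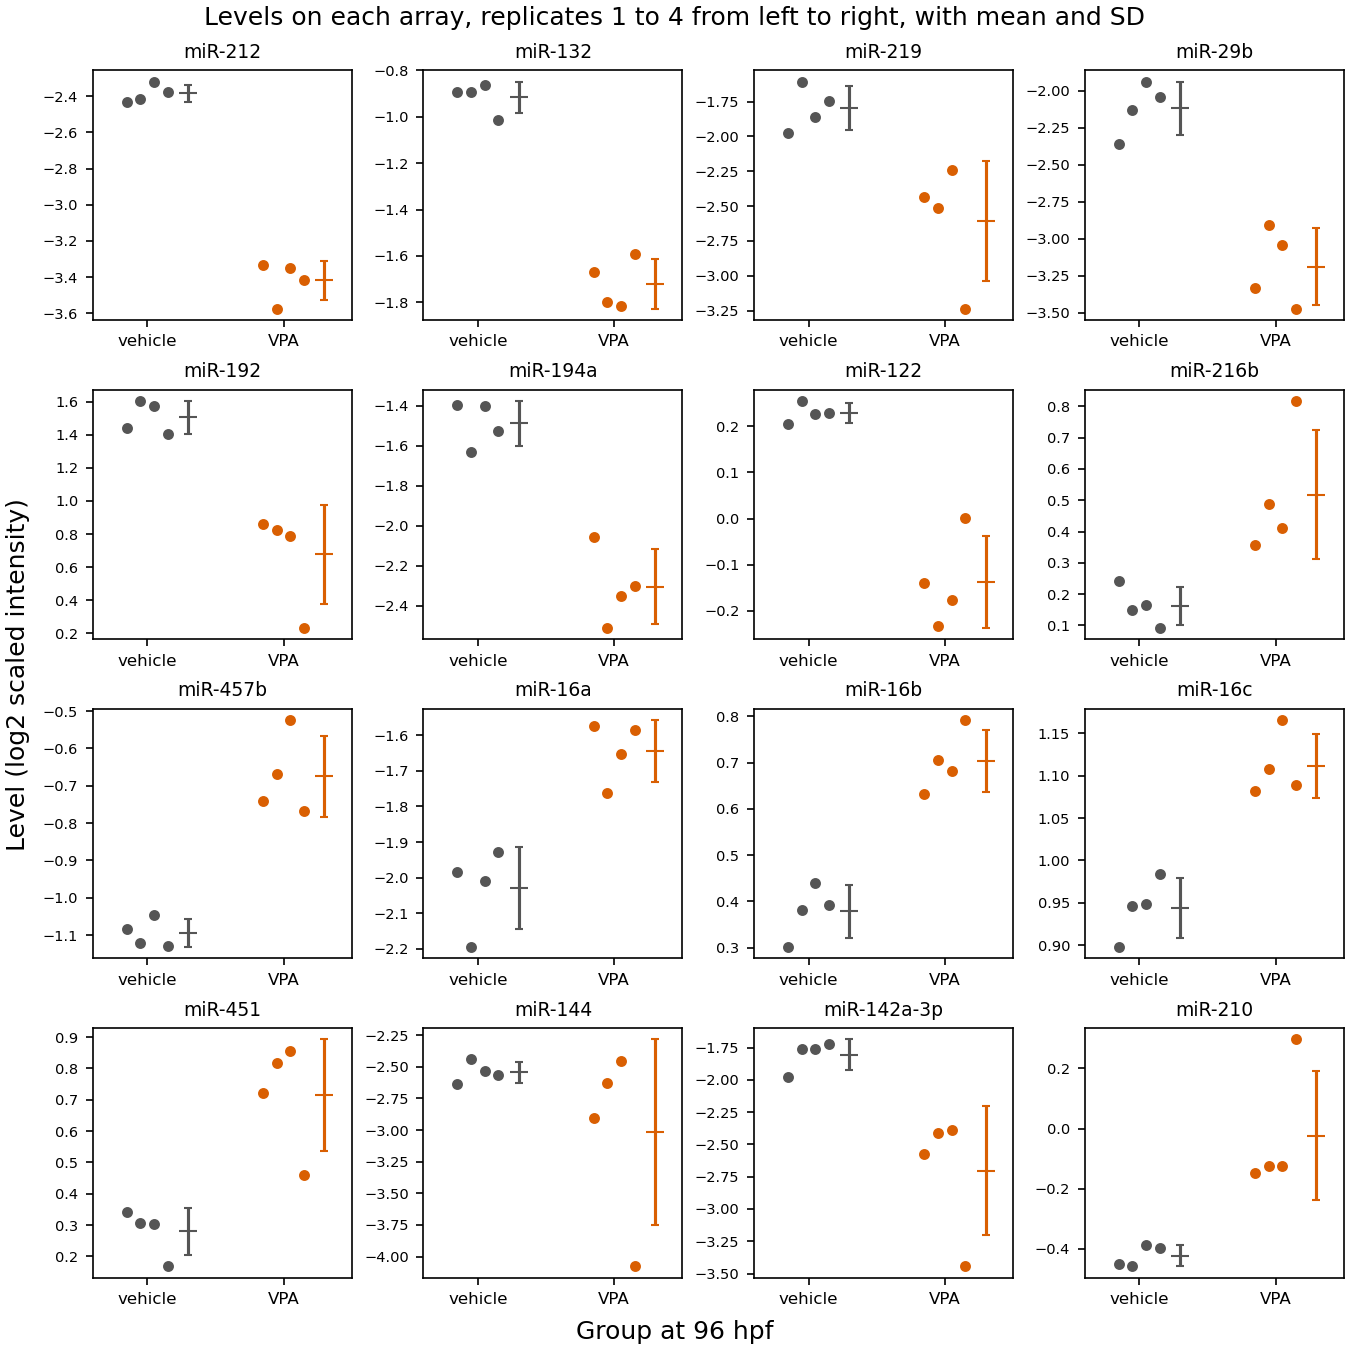
Log2 scaled intensity on each of the 8 arrays for single miRNAs, 1 per panel with its own y axis, with vehicle and VPA side by side, replicates 1 to 4 from left to right in each group, and the group mean with its SD to the right of the points. The vehicle and VPA points of miR-212 do not overlap, and VPA replicate 4 lies apart from the other VPA arrays for several miRNAs.

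Both miRNAs of the miR-29 family fell, against 13.1% of all 175 that fell. Their probes share a run of 14 bases, and how much signal they share was not tested. This list was chosen with earlier results of these data known, so its share adds no support. The family is known for repressing collagens and DNA methyltransferases, and in mouse it rises as neurons mature. miR-29b had levels of -2.36, -2.13, -1.94 and -2.04 in vehicle and -3.33, -2.91, -3.04 and -3.47 in VPA embryos. The lowest vehicle array was above the highest VPA array. At -1.07 ± 0.14 (2.10-fold, limma adjusted p = 0.00189) this was the largest change in the data. miR-29a had levels of -1.48, -1.51, -1.28 and -1.60 in vehicle and -2.21, -1.89, -2.00 and -2.03 in VPA embryos. The fall was smaller, at -0.57 ± 0.09 (1.48-fold, adjusted p = 0.0046), and the groups again did not overlap. Probes of the pair match chromosome 4 at 1414 bases from each other.

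Among miRNAs of liver, gut and pancreas, 4 of 7 tested members fell and 1 rose, which is 71.4% called against 21.7% of all 175. One of the 4 is miR-194b, near the floor. The list was chosen with earlier results of these data known, so its share of calls adds no support. The list's median difference was below 0, but it falls on miR-194b, so its size is not given. miR-192 and miR-194a, made by gut and liver epithelium, are neighbours on chromosome 10 with probes 177 bases apart. miR-192 had levels of 1.44, 1.60, 1.57 and 1.40 in vehicle and 0.86, 0.82, 0.79 and 0.23 in VPA embryos. All VPA arrays lay below the vehicle arrays, VPA replicate 4 farthest, and the fall was -0.83 ± 0.14 (1.77-fold, limma adjusted p = 0.0046). miR-194a had levels of -1.40, -1.63, -1.40 and -1.52 in vehicle and -2.06, -2.51, -2.35 and -2.30 in VPA embryos, a fall of -0.82 ± 0.10 (1.76-fold, adjusted p = 0.00189). Without VPA replicate 4 miR-192 was at -0.68 and miR-194a at -0.82, and the difference between the neighbours was not tested.

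miR-122, which is made almost only by hepatocytes, had levels of 0.20, 0.26, 0.23 and 0.23 in vehicle and -0.14, -0.23, -0.18 and 0.00 in VPA embryos. The vehicle arrays were tightly grouped and all VPA arrays were below them. The fall was -0.37 ± 0.06 (1.29-fold, limma adjusted p = 0.0046). miR-194b was called lower (limma adjusted p = 0.00715), but it entered the test only through the vehicle group, with 3 vehicle and 2 VPA arrays well above background. Its VPA values were at or near the floor, so the size of its change is not given. No pancreatic miRNA was called lower. miR-216b, of the exocrine pancreas, had levels of 0.24, 0.15, 0.16 and 0.09 in vehicle and 0.36, 0.49, 0.41 and 0.82 in VPA embryos. All 4 VPA arrays were above the vehicle arrays, with a rise of 0.36 ± 0.10 (1.28-fold, adjusted p = 0.0367) that was 0.26 without VPA replicate 4. It lost its call when any 1 vehicle array or VPA replicate 2 was left out, and with the replicate block (adjusted p = 0.0816). Its neighbour miR-216a differed by 0.03 and miR-217 of the same tissue by 0.18, and neither passed with all arrays. Without VPA replicate 4 miR-217 passed at 0.23 (limma adjusted p = 0.0153), and miR-216a (0.09) did not.

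All 7 tested members of the miR-15/16 family were above 0, with a median of 0.25, and 4 rose (57.1%). Over all 175 miRNAs 81 were above 0 and 8.57% rose. The family is broadly expressed and represses cyclins and other regulators of the cell cycle. miR-457b, a fish member, had levels of -1.08, -1.12, -1.05 and -1.13 in vehicle and -0.74, -0.67, -0.52 and -0.77 in VPA embryos. The groups were well apart, with a rise of 0.42 ± 0.07 (1.34-fold, limma adjusted p = 0.00396). miR-16a had levels of -1.98, -2.20, -2.01 and -1.93 in vehicle and -1.57, -1.76, -1.65 and -1.58 in VPA embryos, a rise of 0.39 ± 0.08 (1.31-fold, adjusted p = 0.00715). miR-16b had levels of 0.30, 0.38, 0.44 and 0.39 in vehicle and 0.63, 0.71, 0.68 and 0.79 in VPA embryos, a rise of 0.32 ± 0.06 (1.25-fold, adjusted p = 0.005). For each of these the VPA arrays lay wholly above the vehicle arrays. The probes of miR-16a, miR-16b and miR-16c are close in sequence, and how much signal they share was not tested. miR-16c was the called miRNA nearest to the threshold, at 0.17 ± 0.05 (adjusted p = 0.0395), and it did not pass with the replicate block (adjusted p = 0.0798), without any 1 vehicle array or without VPA replicate 1, 2 or 3. The members miR-457a (0.25) and miR-15b (0.20, adjusted p = 0.054) had differences of similar size that did not pass. Without VPA replicate 4 miR-15b passed at 0.16 (limma adjusted p = 0.0307), and miR-457a (0.15) did not. miR-15a, whose probe lies 219 bases from that of miR-16b, differed by only 0.02.

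Of the miRNAs embedded in the Hox clusters, 3 of 8 rose and 0 fell (37.5%, against 8.57% of all 175 that rose), and 7 of the 8 were above 0, compared with 81 of the 175. The 7 include miR-10a*, which was well above background only on VPA arrays and so entered the test through them. The list's median below includes it as well. The miR-10 miRNAs lie beside Hox genes and are expressed in the spinal cord and trunk. miR-10a had levels from 1.15 to 1.27 on the 4 vehicle arrays and from 1.40 to 1.57 on the 4 VPA arrays, without overlap, a rise of 0.27 ± 0.06 (limma adjusted p = 0.0125). miR-10b had levels of 2.37, 2.40, 2.38 and 2.31 in vehicle and 2.60, 2.61, 2.58 and 2.60 in VPA embryos. Its shift was small but larger than the spread in either group, at 0.23 ± 0.05 (adjusted p = 0.00829). miR-10c rose by 0.20 ± 0.05 (adjusted p = 0.0191), and did not pass with the replicate block (adjusted p = 0.0518) or without vehicle replicate 1, 3 or 4. With scaling to the median none of the 3 passed, although the list's median stayed at 0.20 against 0.19. miR-196a, from the posterior part of the clusters, differed by -0.01. The probes of miR-10a, miR-10b and miR-10c are close in sequence, and how much signal they share was not tested.

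Among 5 tested blood miRNAs 1 rose and 1 fell, where 8.57% of all 175 rose and 13.1% fell. miR-451 is made in red blood cells and is matured by Argonaute2 rather than Dicer. It had levels of 0.34, 0.31, 0.30 and 0.17 in vehicle and 0.72, 0.82, 0.86 and 0.46 in VPA embryos. All VPA arrays were above the vehicle arrays, with a rise of 0.43 ± 0.09 (1.35-fold, limma adjusted p = 0.0114). miR-144, which is cut by Dicer from the same primary transcript 143 bases away, had levels of -2.64, -2.44, -2.53 and -2.57 in vehicle and -2.90, -2.63, -2.45 and -4.08 in VPA embryos. Its groups overlapped and VPA replicate 4 was far below the rest. The difference of -0.47 ± 0.32 did not pass (adjusted p = 0.317), and was -0.12 without that array.

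miR-142a-3p, a marker of white blood cells, had levels of -1.98, -1.76, -1.76 and -1.72 in vehicle and -2.58, -2.41, -2.39 and -3.44 in VPA embryos. The groups did not overlap and VPA replicate 4 was lowest. The fall was -0.90 ± 0.22 (1.87-fold, limma adjusted p = 0.0196), and -0.65 without VPA replicate 4. It lost its call without vehicle replicate 2, 3 or 4. Another leukocyte miRNA, miR-223 of myeloid cells, differed by -0.10 ± 0.08 (adjusted p = 0.423). miR-146a, which dampens inflammatory signalling, was at -0.43 (adjusted p = 0.164) with all arrays and -0.63 (adjusted p = 0.00519) without VPA replicate 4. The list's median moved from -0.43 to -0.12 without that array. miR-150 and miR-155 of lymphocytes were well above background on no array.

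In the list of responses to p53, hypoxia and injury, 4 of 4 tested members were called, 2 higher and 2 lower, against 21.7% of all 175. Both that rose are strands of 1 hairpin. The list was chosen with earlier results of these data known, so its share of calls adds no support. miR-34c, a relative of miR-34 that stood in the nervous system list, was at 0.32 and did not pass (limma adjusted p = 0.0752). Without VPA replicate 4 it passed, at 0.21 (adjusted p = 0.0275). miR-210, which the hypoxia factor HIF induces in mammals, had levels of -0.45, -0.46, -0.39 and -0.40 in vehicle and -0.15, -0.12, -0.12 and 0.30 in VPA embryos. Each VPA array was higher, most of all VPA replicate 4. The rise was 0.40 ± 0.10 (1.32-fold, limma adjusted p = 0.0227), and 0.29 without that array. The opposite strand, miR-210*, rose by 0.32 ± 0.09 (adjusted p = 0.0366) and by 0.23 without VPA replicate 4. Neither passed when any 1 vehicle array was left out, and miR-210* did not pass with the replicate block (adjusted p = 0.0695) or without VPA replicate 2 or 3.

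miR-34, which p53 induces in mammals, had levels of 0.07, 0.09, 0.14 and 0.02 in vehicle and -0.37, -0.38, -0.38 and -0.14 in VPA embryos. The groups did not overlap, and the fall was -0.40 ± 0.07 (limma adjusted p = 0.00483). miR-21, which rises in injury and many tumours, had levels of 1.61, 1.33, 1.48 and 1.34 in vehicle and 1.10, 0.89, 0.83 and 0.80 in VPA embryos. Every VPA array was below the vehicle arrays, a fall of -0.53 ± 0.09 (1.45-fold, adjusted p = 0.0046).

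In the cartilage and mesenchyme list, 1 of 8 rose and 1 fell, a share of 25% called that is near the 21.7% of all 175. miR-455, hosted in mammals by a collagen gene of cartilage, had levels of -3.27, -3.43, -3.51 and -3.54 in vehicle and -3.03, -3.05, -3.07 and -2.83 in VPA embryos. The VPA arrays were all above the vehicle arrays, and the rise of 0.44 ± 0.08 (1.36-fold, limma adjusted p = 0.00573) was the largest measured. It was dim, and with normexp background correction its difference was -0.07. The chondrocyte miRNA miR-140 differed by -0.04 ± 0.05 (adjusted p = 0.621). miR-145 of smooth muscle fell by 0.42 on the log2 scale (adjusted p = 0.0148), and lost its call without vehicle replicate 3 or 4. It also lost it with quantile normalization, cyclic loess, scaling to the median, normexp background correction and the scanner software's own signal. Its neighbour miR-143 was at -0.16 with all arrays and passed, at -0.25, without VPA replicate 4.

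In further families 1 member was called with all arrays, where 21.7% of all 175 were called. let-7i had levels of -3.38, -3.25, -3.36 and -3.38 in vehicle and -3.90, -3.88, -3.80 and -3.64 in VPA embryos. It fell by 0.47 on the log2 scale (1.38-fold, limma adjusted p = 0.00396), and lost its call with the floor doubled and with normexp background correction. The other 7 tested members of the let-7 family, which promotes differentiation, did not pass. The median over all 8 tested members, let-7i included, was 0.06. miR-27c had levels of -1.10, -0.89, -0.95 and -0.88 in vehicle and -1.60, -1.38, -1.40 and -1.62 in VPA embryos. It fell 1.46-fold (-0.55 ± 0.08, adjusted p = 0.00372), while its neighbour miR-23a differed by -0.05 and its relative miR-27b by 0.07. For both miRNAs the vehicle and VPA arrays did not overlap, and their difference from their relatives was not tested. Without VPA replicate 4, let-7b (0.17), let-7d (0.14) and miR-27d (-0.26) passed as well.

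Among the miR-17 to miR-92 clusters, which drive proliferation, 1 of 14 rose (7.14%, against 8.57% of all 175). miR-18c had levels of 0.94, 0.86, 0.93 and 0.93 in vehicle and 1.35, 1.25, 1.41 and 1.03 in VPA embryos, a rise of 0.35 ± 0.08 (1.27-fold, limma adjusted p = 0.0191). It lost its call without vehicle replicate 2, 3 or 4. Its cluster neighbours miR-19c (0.23, adjusted p = 0.0505, the uncalled miRNA nearest to the threshold) and miR-363 (0.24, adjusted p = 0.0588) had differences that did not pass. Both neighbours passed without VPA replicate 4, at 0.21 and 0.27 (limma adjusted p = 0.0386 and 0.0201). In the miR-30 family, miR-30e fell by 0.25 (adjusted p = 0.0367, and 0.0518 with the replicate block), and it lost its call without any 1 vehicle array or without VPA replicate 1. In skin and other epithelium, miR-429b fell by 0.25 (adjusted p = 0.0131) and lost its call without vehicle replicate 3. It also lost it with quantile normalization, cyclic loess, scaling to the median and scaling over probes detected on all arrays. The other 9 tested members of the epithelial list did not pass. In the miR-30 and epithelial lists 16.7% and 10% were called, against 21.7% of all 175.

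Outside the lists, miR-724 had levels of -0.81, -0.93, -0.83 and -1.01 in vehicle and -1.42, -1.53, -1.48 and -1.76 in VPA embryos. The groups were wide apart, a fall of -0.66 ± 0.09 (1.58-fold, limma adjusted p = 0.00189). miR-139, which is enriched in mammalian brain, fell by 0.37 (adjusted p = 0.0046). miR-458 fell by 0.42 (adjusted p = 0.0191) and lost its call without vehicle replicate 1, 2 or 3. The dim miRNA miR-459* fell by 0.41 (adjusted p = 0.00577). miR-489 and miR-727 were called lower through 3 vehicle arrays well above background, against 2 VPA arrays, and with VPA values near the floor the sizes of their changes are not given. Small rises were measured for miR-22b (0.27) and miR-130b (0.23), neither of which passed with the replicate block (adjusted p = 0.0696 and 0.0695). miR-22b lost its call without vehicle replicate 2 or 3 or VPA replicate 2, and miR-130b without any 1 vehicle array or VPA replicate 1 or 2. miR-190b is named for its size, after its values were seen. It had levels of -0.53, -0.88, -0.63 and -0.57 in vehicle and -1.05, -1.60, -1.12 and -2.78 in VPA embryos. The groups did not overlap, but the difference of -0.98 ± 0.35 did not pass (limma adjusted p = 0.0759). Without VPA replicate 4 it was -0.60 and passed (adjusted p = 0.0101).

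No call was made in 5 lists, against 21.7% called over all 175. They are skeletal and heart muscle (7 tested, median 0.10), retina, hair cell and lens (9, median 0.03), the family of miR-99, miR-100 and miR-125 (5, median 0.08), the miR-430 family of the early embryo (4, median 0.03) and endothelium (4, median -0.14). Their members ranged from -0.31 for miR-126* to 0.36 for miR-181a*. VPA replicate 4 decided part of this. miR-206, of skeletal muscle, had levels of 3.76, 3.77, 3.76 and 3.65 in vehicle and 4.23, 4.13, 3.95 and 3.27 in VPA embryos. The first 3 VPA arrays were above all vehicle arrays. On VPA replicate 4 miR-206 was saturated, and 3.27 is that array's ceiling, so its place among the arrays is unknown and the fitted difference over all arrays has no meaning. Without that array the difference was 0.37 (limma adjusted p = 0.00414). Also without it, 3 retinal miRNAs passed higher, 2 of the family of miR-99, miR-100 and miR-125 passed higher, and 2 of the miR-430 family and 1 of the endothelium passed lower. In that setting 37 of all 175 miRNAs passed higher and 35 lower.

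**Figure D4:**
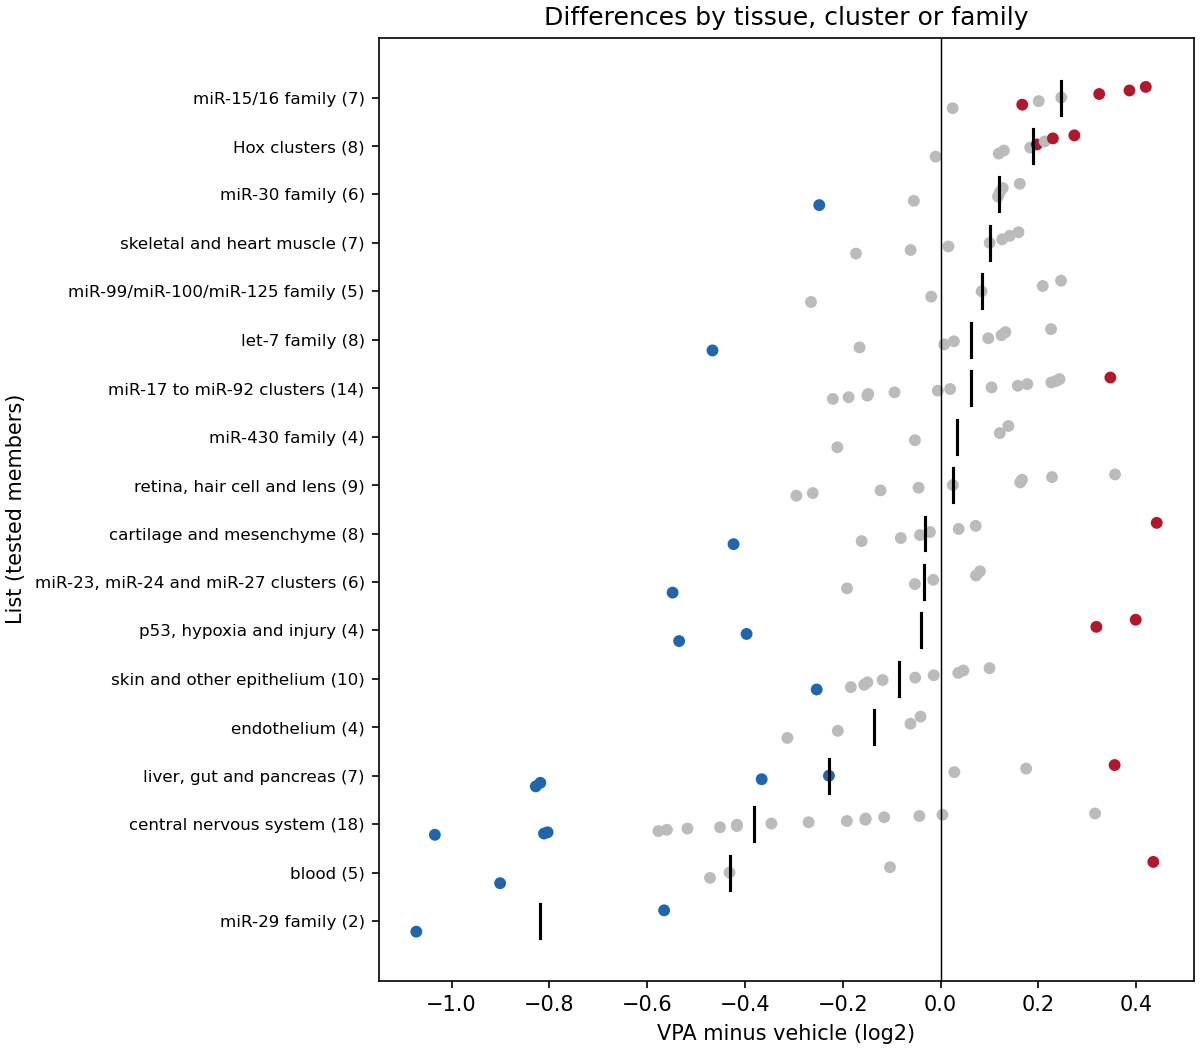
VPA minus vehicle (log2) for each tested miRNA, grouped by the 18 miRNA lists, whose numbers of tested members stand in parentheses. Red points passed higher, blue points passed lower, grey points did not pass, and a bar marks each median. The miR-15/16 family lies wholly above 0, the miR-29 family wholly below it, and most nervous system miRNAs are below 0.

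Neighbouring miRNAs often share a transcript, so positions were compared. Among tested miRNAs, 93 pairs had probe matches within 10 kb of each other on danRer6, and 55 of these pairs had the same sign. Both miRNAs were called in 4 pairs, in the same direction each time: miR-132 with miR-212, miR-192 with miR-194a, miR-29a with miR-29b, and miR-210 with miR-210*. The last pair are strands of 1 hairpin. In 18 pairs only 1 was called, among them miR-451 with miR-144, miR-27c with miR-23a and miR-16b with miR-15a. Whether the differences within these pairs exceed error was not tested. Over all 175 miRNAs 21.7% were called, 81 were above 0 and 94 below. Whether the counts of pairs exceed those among miRNAs that lie far apart was not tested. Of the 16 tested strands named with an asterisk, 1 rose and 1 fell, against 8.57% and 13.1% of all 175. Their median difference was 0.09.

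The called miRNAs differed in the brightness of their probes. The median of the mean log2 level over the vehicle arrays was -1.72 for miRNAs that fell and 0.16 for those that rose, against -0.25 over all 175. Probes differ in how well they bind, so brightness is no measure of abundance between miRNAs. Across the 175 miRNAs the difference did not closely follow the mean level over all 8 arrays (Pearson r = 0.18, Spearman rho = 0.14). Nor did it closely follow the GC content of the probe (0.08 and 0.09) or its length (-0.09 and -0.08). These correlations run across miRNAs of the same 8 arrays, which are not independent replicates.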

How the data were processed

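The authors hybridized Cy3-labelled total RNA to 1-colour Agilent miRNA arrays. Per the file headers, spots were read with Feature Extraction 9.5.3.1, and the submitters' processing notes name Agilent Feature Extraction 9.5. The deposited intensity is background-subtracted and not normalized between arrays. Other deposited columns are flags of 0 or 1 for spots well above background, saturated or outlying.

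The 9800 spots of 518 zebrafish probes were used, without 715 control spots and without outlier spots (3.65% to 7.96% per array). Intensity was divided by the array's 75th percentile, floored at 0.0561, converted to log2 and averaged over the 10 to 20 spots of a probe. The floor is the median, over the 8 arrays, of each array's lowest scaled probe mean. Only probes with most spots well above background on the array were counted for it. The brightest of 2 to 4 probes stood for a miRNA. The 8 arrays were fitted with limma 3.58.1 in R 4.3.3 (package data.table, version 1.17.8), two-sided, adjusted over 175 miRNAs with a threshold of 0.05. Figures used matplotlib 3.10.9 in Python 3.11.15. The number of arrays limits the precision, as do saturated spots and signal near the floor. Saturated spots were kept, and left out as an alternative.

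Same-numbered vehicle and VPA arrays had residual correlations of 0.28, 0.29, 0.27 and 0.24, all over 0.1 and each the highest for its number. This link is taken from the data and not from the labels. Same-numbered arrays also lay in the same row of the slide, so whether the link reflects replicate or row cannot be told.

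The miRNAs, the 18 lists and the tests were chosen with earlier results of these data known. Named are up to 12 called rises and 12 falls by size, miRNAs detected in 1 group only, the called and up to 2 further members of each list, opposite strands and neighbours within 10 kb of called miRNAs, the 5 with the highest mean level, and those nearest to the threshold. The text gives values for many of them. Relatives by seed were not added, since no mature sequences were used here. Alternatives covered background correction, scaling, filters, floors, probes, saturated and outlier spots, all 16 arrays, eBayes settings, a minimum fold of 1.2 and single arrays left out.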

Additional observations from a re-analysis of the deposited data

Results flagged for a closer look

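For 85 named miRNAs, the highest or lowest of the 4 arrays of a group was checked with Dixon's test for distance from its nearest neighbour. Of 170 groups 23 were marked, where chance marks about 1 in 20, and 12 of the 23 were VPA replicate 4. Values are log2 scaled intensities.

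VPA replicate 4 was lowest for miR-1 (1.93), miR-192 (0.23), miR-200a (1.88), miR-2184 (-3.85) and miR-458 (-3.02). It was highest for miR-146a (-2.80), miR-181a* (-0.62), miR-210 (0.30), miR-30e* (-0.87), miR-34 (-0.14) and miR-455 (-2.83). It was also marked for miR-9 (3.27), but that value is the array's saturation ceiling and only a lower bound, so its rank is not known. This was the brightest array, with 212 saturated spots. The part of brightness in these values was not tested. The calls of miR-192, miR-210, miR-34, miR-455 and miR-458 held without it.

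On other VPA arrays, replicate 1 stood apart for miR-194b (-4.14) and miR-202 (-3.76) and replicate 2 for miR-19c (-1.12). Among vehicle arrays, replicate 1 stood apart for miR-125a (0.34), miR-142a-3p (-1.98) and miR-202 (-4.00), and replicate 2 for let-7i (-3.25), miR-18c (0.86) and miR-454b (-1.78). Vehicle replicate 3 did so for miR-2184 (-2.51) and replicate 4 for miR-206 (3.65). For miR-194b and miR-202 the other arrays of the group lay at or near the floor, from -4.16 to -4.15. The rate of 1 in 20 does not hold for such floored values.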

How the results depend on the processing

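The 38 calls numbered between 24 and 72 with 1 array left out, 78 without VPA replicates 3 and 4, 59 in a fit of all 16 arrays, 23 with normexp background correction (offset 50), 5 when a change over 1.2-fold was required (17 at an unadjusted p under 0.05) and 0 without scaling (0 at an unadjusted p under 0.05 in limma). The other settings, which include the replicate block (30), gave 28 to 44. The replicate block ended 8 calls, each given beside its miRNA, and changed no other call. Rises and falls numbered 22 and 21 when scaled over probes detected on all arrays, 20 and 18 with the floor doubled and 21 and 18 over miRNAs detected at both ages. Directions turned for miR-22b (-0.19) and miR-455 (-0.068) with normexp, and without scaling for miR-194b (0.15), miR-459* (0.029), miR-489 (0.11) and miR-727 (0.13). Without scaling the median of all miRNAs moved from -0.03 to 0.20, and the medians of several lists near 0 became positive. That of the liver, gut and pancreas list also became positive. With scaling it falls on miR-194b, near the floor, so its size is not given. The cause of these moves was not tested. Of the 38 calls, 24 passed with each array left out in turn. Apart from no scaling and the 1.2-fold requirement, 14 passed in every setting in which they were tested. Of these, miR-132, miR-194a, miR-212 and miR-29b were tested in 30 of the 31 settings counted. Losses under other scaling or background correction are given beside only some of the miRNAs. Leaving out VPA replicates 1 and 2, using the deposited values (39 calls) and the omission of miRNAs below background on any array were chosen after seeing the data. Signal near background limits miR-194b, miR-489 and miR-727.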

Other observations

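Detection in 1 group only was rare. miR-10a*, the opposite strand of miR-10a, was well above background on 0 vehicle and 3 VPA arrays. The lower bound of its measured rise in VPA embryos was 1.02-fold, and its difference of 0.21 did not pass (limma adjusted p = 0.105). miR-202, known from gonads, was also well above background on 0 vehicle and 3 VPA arrays, but its signal gave no fold. Arrays differed in how dim a signal they detected. The lowest scaled log2 signal well above background was -3.94, -4.23, -5.38 and -5.48 on VPA replicates 1 to 4. On the vehicle arrays it ranged from -4.17 to -3.54. The part of this in the detection of both miRNAs was not tested.

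The array also carries probes for 14 pufferfish miRNA names, of which 3 were detected. The pufferfish miR-458 probe was lower in VPA embryos, with a difference of -0.38 and no overlap between the groups, beside the zebrafish miR-458 at -0.42. The pufferfish miR-7 and miR-184 probes differed by -0.45 and 0.18 with overlapping groups.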
